A study of Sus scrofa with 6 samples.

Results

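The liver burns fatty acids through a set of mitochondrial and peroxisomal enzymes, and 31 genes of that set were followed here in the livers of newborn piglets. They cover lipid droplets and fatty acid binding, activation and entry into mitochondria, the mitochondrial oxidation cycle, peroxisomal and omega oxidation, the last step of ketone body formation, and regulation. The genes were chosen by function, by matching their symbols to the Ensembl identifiers of the expression tables. Of the 31 genes, 24 were matched to 1 identifier each among the 26733 genes in the tables, and 23 of these had 1 FPKM or more in at least 3 libraries. FPKM (fragments per kilobase of gene, scaled to the mapped fragments of a library) is a level that takes the length of a gene and the size of a library into account.

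The study compared 2 maternal diets in Landrace x Yorkshire piglets, with 3 liver libraries each. The 2×Trp sows ate 0.26% tryptophan at each of 2 daily meals, and the High-Low sows ate 0.39% in the morning and 0.13% in the afternoon. The title of the series frames the comparison as a search for unfavourable effects of tryptophan in the diet. Nothing in the labels says whether libraries came from separate piglets or litters, so p-values reflect only how far these samples vary, which may be technical variation.

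At birth the supply of energy changes from glucose delivered by the placenta to the fat of colostrum and milk, and the liver takes up fatty acid oxidation. Fatty acids are bound to coenzyme A, carried into mitochondria as carnitine esters and shortened in repeated rounds of dehydrogenation, hydration, a second dehydrogenation and thiolysis. Very long and branched chains are shortened in peroxisomes first. The nuclear receptor PPARA switches on many of these genes in fasting and after birth. Much of the acetyl-CoA formed goes to ketone bodies in most newborn mammals, whereas newborn pigs are known for making few of them.

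All libraries carried liver products at high levels. The albumin gene ALB had 9391, 15282 and 11388 FPKM in 2×Trp replicates 1 to 3 and 19600, 19795 and 13554 in High-Low. APOA1 went the other way, with 31095, 23726 and 20661 FPKM against 16263, 19960 and 18027. Of 15 hepatocyte markers 13 were matched, with summed levels of 87987 to 155749 FPKM per library. APOC3 was the largest part of these sums, at 34665 to 72713 FPKM. AHSG, a major liver product, was listed at 0 in all 6 libraries. A listed 0 can be a failed estimate in such tables. Markers of blood and other cells differed between libraries. The 7 matched erythroid markers summed to 6171 to 15893 FPKM in 2×Trp and 1817 to 7199 in High-Low, with HBB carrying most of it. The 5 macrophage markers summed to 413 to 572 FPKM against 247 to 444, most of it C1QA, while MARCO averaged 9.92 FPKM in 2×Trp and 14.5 in High-Low, and the 9 endothelial markers to 167 to 210 against 100 to 196. Mitochondrial sequence took 3.48% to 5.20% of the FPKM total in 2×Trp and 5.83% to 10.02% in High-Low. The part of these differences in the results was not tested. The 2 matched muscle markers, ACTA1 and MYH6, summed to 1.04 FPKM at most. In whole tissue, fewer cells of a type and less RNA per cell cannot be told apart. The FPKM totals ran from 956426 in High-Low 3 to 1230288 in High-Low 2, and read depth is unknown.

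The 23 genes measured were abundant in these livers. Their median level was 37.6 FPKM, against 6.85 over the 10901 genes tested, and 7 of 23 averaged over 100 FPKM (30.4%, against 8.49% of all tested). Together they summed to 1753, 1836 and 2024 FPKM in 2×Trp and 1876, 2030 and 1588 in High-Low, or 0.151% to 0.187% of each library's total. The levels along the pathway were uneven. ETFB stood at the top with a mean of 462 ± 123 FPKM, and PPARA at the bottom with 3.18 ± 1.55 (SD over 6 libraries).

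**Figure D1:**
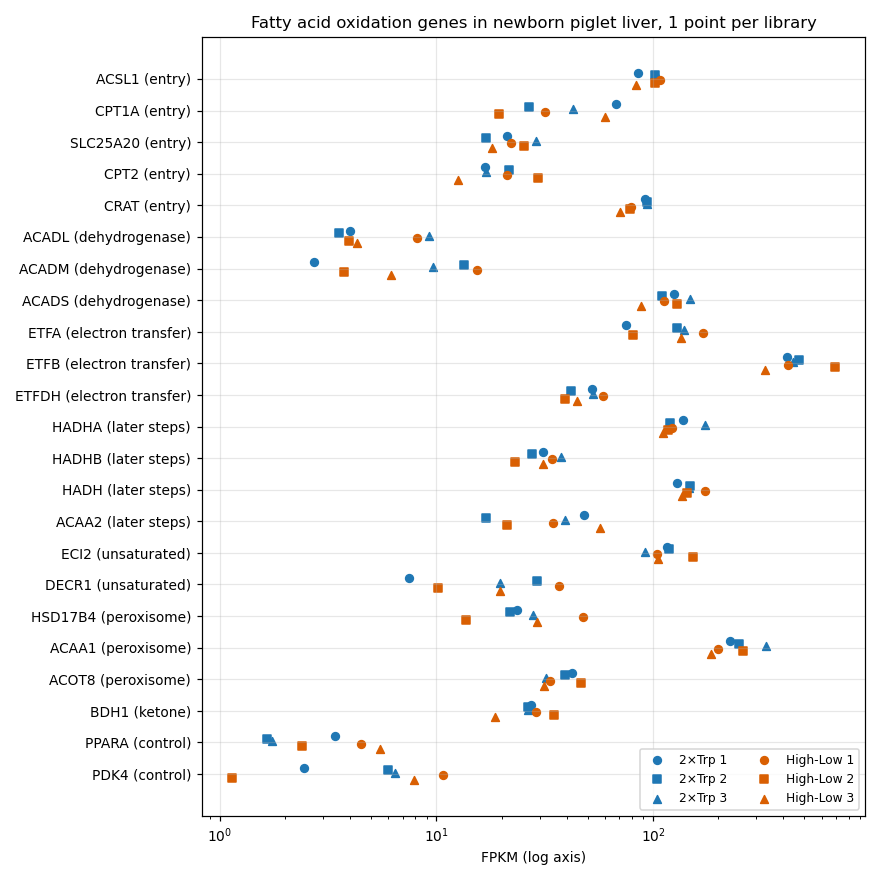
FPKM (horizontal log axis) of the 23 genes measured, grouped by step of the pathway, with 1 point per library (blue, 2×Trp; orange, High-Low; circle, square and triangle for replicates 1, 2 and 3). ETFB and ACAA1 lie at the right, PPARA, PDK4, ACADL and ACADM at the left, and the colours overlap in every gene but CRAT.

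None of the 23 genes differed between the diets past the threshold. In limma, 0 of 23 passed an adjusted p under 0.05 (background 0.00917% of the 10901 genes tested) and 0 of 23 had an unadjusted p under 0.05 (background 3.16%). Their log2 fold changes, High-Low minus 2×Trp on log2(FPKM + 1), ran from -0.34 to 0.63, with 12 positive and 11 negative. The median was 0.0025, beside -0.0038 over all genes tested. For 19 of 23 genes the difference between the diet means was smaller than the pooled SD within the diets (82.6%, against 75.9% of all tested). The diets did not overlap in 1 gene, CRAT (4.35%, background 7.18%). With array quality weights, which give variable libraries less influence, 5 of 23 genes had an unadjusted p under 0.05 (16.4% of all genes did), and 0 passed after adjustment.

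A miss of the threshold does not show equal levels, and the 95% intervals from limma set what could have been seen. For 16 of 23 genes the whole interval lay within a 2-fold change in either direction. For the other 7, namely CPT1A, ACADM, ACAA2, DECR1, HSD17B4, PPARA and PDK4, it reached beyond 2-fold. The tightest intervals belonged to CRAT (-0.68 to 0.09), HADH (-0.33 to 0.53) and ACSL1 (-0.45 to 0.45). PDK4 had the widest, from -1.41 to 1.62.

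**Figure D2:**
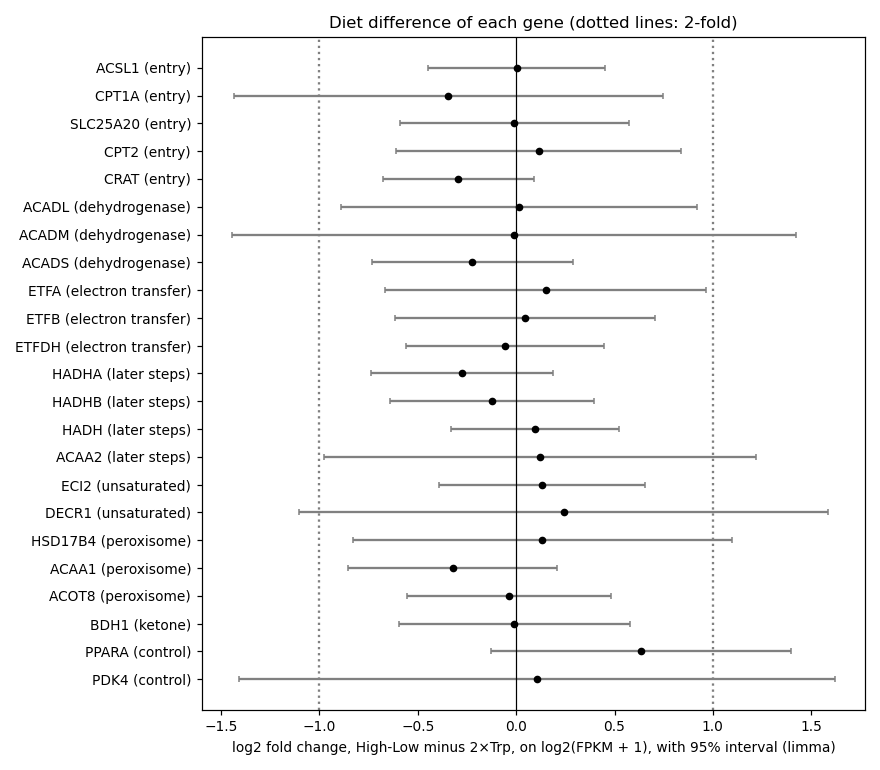
Log2 fold change of each gene, High-Low minus 2×Trp on log2(FPKM + 1) (horizontal axis), with the 95% interval from limma (bars, 3 libraries per diet); dotted lines mark a 2-fold change. Every interval includes 0, and those of 7 genes cross a dotted line.

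Entry into mitochondria begins with ACSL1, the synthetase that binds long-chain fatty acids to coenzyme A. It had 84.9, 102 and 106 FPKM in 2×Trp and 108, 102 and 83.4 in High-Low, a highest value only 1.3 times the lowest. CPT1A makes the carnitine ester at the outer membrane and is the step at which entry is controlled. Its values were 67.7, 26.7 and 42.9 FPKM in 2×Trp and 31.8, 19.5 and 59.8 in High-Low. The highest CPT1A value was in 2×Trp 1 and the next in High-Low 3, so both diets held high and low libraries (log2 fold change -0.34, 95% interval -1.43 to 0.74, limma adjusted p = 0.998). The carrier SLC25A20 takes the ester across the inner membrane and had 21.1, 16.8 and 28.8 FPKM against 22.0, 25.4 and 18.0. CPT2, which returns the chain to coenzyme A inside, had 16.8, 21.7 and 16.9 FPKM against 21.1, 29.3 and 12.6. CPT2 was thus highest in High-Low 2, the library with the lowest CPT1A.

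CRAT moves short acyl groups between carnitine and coenzyme A. Its levels were 91.9, 94.1 and 93.4 FPKM in 2×Trp and 79.5, 77.9 and 70.2 in High-Low, or 93.1 ± 1.15 against 75.9 ± 5.02 (SD, n = 3 each). All 3 High-Low libraries lay below all 3 2×Trp libraries, and the log2 fold change was -0.29 (SE 0.16, limma adjusted p = 0.998, range over 16 alternatives 0.259 to 1). CRAT remained the only gene of the 23 without overlap when libraries were scaled to the same FPKM total, where 5.89% of all tested genes had none.

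The acyl-CoA dehydrogenases take the first electrons, each from chains of another length. ACADS, for short chains, had 126, 109 and 148 FPKM in 2×Trp and 112, 129 and 88.2 in High-Low. ACADM, for medium chains, had 2.72, 13.4 and 9.65 FPKM against 15.5, 3.74 and 6.17. The lowest ACADM values, in 2×Trp 1 and High-Low 2, belonged to different diets, and the highest, in High-Low 1, was 5.69 times the lowest. ACADL, for long chains, had 3.97, 3.55 and 9.23 FPKM against 8.10, 3.95 and 4.31. ACADS therefore lay above ACADM and ACADL in every library.

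ACADVL, the dehydrogenase for very long chains, was the 1 matched gene below the level required. Its values were 0.253, 0.163 and 0.0384 FPKM in 2×Trp, then 0.0767 and 0.0458 in replicates 1 and 2 of High-Low, with a listed 0 in replicate 3. The tables place it at chr12:54859685-54863767 of susScr3 with a listed length of 199 bases. Whether so low a value is a level of the gene or a failed estimate was not tested. On the other side of the requirement, PPARA and PDK4 had lowest values of 1.65 and 1.14 FPKM and were kept in all 6 libraries.

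Electrons from these dehydrogenases pass to electron transfer flavoprotein, a pair of the ETFA and ETFB products, and on to the respiratory chain through ETFDH. ETFB had 415, 473 and 443 FPKM in 2×Trp and 419, 692 and 328 in High-Low. ETFA had 75.1, 129 and 139 FPKM against 170, 80.4 and 134. High-Low 2 was the highest library for ETFB and next to the lowest for ETFA. ETFDH had 52.2, 42.0 and 52.7 FPKM against 58.5, 39.3 and 44.6. The listed lengths of ETFA and ETFB are 291 and 362 bases. If the values were computed with these lengths, the per-length levels of both genes rest on short models. The sources used here do not say whether they were.

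HADHA and HADHB encode the subunits of the trifunctional protein, which carries out hydration, the second dehydrogenation and thiolysis of long chains. HADHA had 137, 119 and 173 FPKM in 2×Trp and 122, 118 and 111 in High-Low, or 143 ± 27.4 against 117 ± 5.56 (SD, n = 3 each). The groups overlapped, and the log2 fold change was -0.27 (SE 0.20, limma adjusted p = 0.998). HADHB had 30.9, 27.5 and 37.6 FPKM against 34.03, 23.1 and 31.0. The genes lie head to head on chromosome 3 of susScr3, HADHB on the minus strand at 119649281 to 119690928 and HADHA on the plus strand at 119690599 to 119782862. Their listed spans overlap, and the sources used here do not give the strand setting of the authors' quantification, so reads from the shared stretch cannot be told apart. The listed lengths also differ, with 511 bases for HADHA and 1961 for HADHB.

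HADH, which dehydrogenates shorter hydroxyacyl chains, had the smallest SD of the 23 genes on the log2 scale. It had 129, 147 and 147 FPKM in 2×Trp and 174, 144 and 136 in High-Low, and that SD was 0.15 over 6 libraries. The mitochondrial thiolase ACAA2 had 48.1, 17.0 and 39.4 FPKM against 34.7, 21.3 and 56.9. As with CPT1A, the highest ACAA2 values were in 2×Trp 1 and High-Low 3 and the lowest in 2×Trp 2 and High-Low 2.

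Unsaturated chains need extra enzymes. DECR1, a reductase for double bonds in mitochondria, had 7.48, 29.0 and 19.7 FPKM in 2×Trp and 36.9, 10.1 and 19.6 in High-Low. DECR1 and ACADM had the same lowest pair of libraries, 2×Trp 1 and High-Low 2, and the same highest pair, High-Low 1 and 2×Trp 2. The isomerase ECI2, found in mitochondria and peroxisomes, had 116, 119 and 92.0 FPKM against 104, 152 and 106. ECI2 was highest in High-Low 2, a library with low DECR1.

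Of the 3 peroxisomal enzymes among the 23 genes, the thiolase ACAA1 was the most abundant, with 227, 250.3 and 331 FPKM in 2×Trp and 199, 260.4 and 185 in High-Low. The means were 270 ± 54.6 and 215 ± 40.1 FPKM (SD, n = 3 each), with overlapping groups and a log2 fold change of -0.32 (95% interval -0.85 to 0.21, limma adjusted p = 0.998). HSD17B4, which hydrates and dehydrogenates chains in peroxisomes, had 23.7, 21.9 and 28.0 FPKM against 47.7, 13.7 and 29.2. Both its highest and its lowest value came from High-Low libraries. ACOT8, a thioesterase that releases shortened chains, had 42.5, 39.4 and 32.0 FPKM against 33.6, 46.7 and 31.5.

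BDH1, which converts acetoacetate to 3-hydroxybutyrate in the last step of ketone body formation, had 27.3, 26.5 and 26.4 FPKM in 2×Trp and 28.9, 34.8 and 18.6 in High-Low. The 2×Trp values were nearly equal (26.7 ± 0.51), and the High-Low values spread to both sides of them (27.4 ± 8.20; SD, n = 3 each). On the log2 scale the diet difference was -0.0087 (95% interval -0.59 to 0.58).

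PPARA itself was low, at 3.39, 1.65 and 1.74 FPKM in 2×Trp and 4.46, 2.38 and 5.47 in High-Low. It had the largest log2 fold change of the 23 genes, 0.63 (SE 0.32, 95% interval -0.13 to 1.40), and did not pass the test (unadjusted p = 0.0897, limma adjusted p = 0.998, range 0.237 to 1 over the 15 alternatives that kept the gene). High-Low 2 lay below 2×Trp 1, so the groups overlapped. The unadjusted p of PPARA was 0.01999 without High-Low replicate 2 (12.9% of all genes were then under 0.05) and 0.03799 without 2×Trp replicate 1 (2.57%). The libraries left out held the lowest High-Low and the highest 2×Trp value of PPARA, so each removal widened the difference by construction. Without any other single library the unadjusted limma p of PPARA was not under 0.05. PDK4, a kinase that shuts pyruvate out of oxidation and a known PPARA target, had 2.45, 5.97 and 6.42 FPKM against 10.7, 1.14 and 7.86. It varied most of the 23, with a highest value 9.45 times the lowest, and High-Low held both extremes.

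In 19 of 23 genes the diet means differed by less than the pooled SD within the diets (82.6%, against 75.9% of all tested). The SD over 6 libraries had a median of 0.30 on the log2 scale for the 23 genes and 0.32 for all genes tested, so as a group they varied about as much as other genes. The highest value was over 3 times the lowest in 7 of 23 genes (30.4%, against 24.6% of all tested). These 7 were CPT1A, ACADM, ACAA2, DECR1, HSD17B4, PPARA and PDK4. HADH, ACSL1 and CRAT stood at the other end, with ratios of 1.35, 1.30 and 1.34.

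Which library was low depended on the gene. High-Low 2 was among the 2 lowest libraries in 12 of 23 genes (52.2%, against 35.2% of all tested) and High-Low 1 in 2 of 23 (8.70%, against 39.0%). The lowest pair was 2×Trp 2 and High-Low 2 for 6 genes (CPT1A, ACADL, ETFDH, HADHB, ACAA2 and HSD17B4; 26.1%, against 9.03% of all tested). It was 2×Trp 1 and High-Low 2 for ACADM, ETFA, DECR1 and PDK4 (17.4%, against 12.7%). These counts were chosen after the values were seen and carry no test. Scaling to the same FPKM total moved them. High-Low 3 was the lowest library for 9 of 23 genes as deposited (39.1%, against 15.6% of all tested) and for 3 after scaling (13.0%, against 4.55%). High-Low 2 was the lowest for 5 as deposited (21.7%, against 18.05%) and for 9 after scaling (39.1%, against 23.57%). High-Low 1 was among the 2 lowest in 6 of 23 after scaling (26.1%, against 45.5% of all tested). The counts of pairs are for values as deposited. After scaling, 2×Trp 2 was among the 2 lowest in 11 of 23 genes (47.8%, against 42.0% of all tested). As deposited it was so in 9 (39.1%, against 29.8%). High-Low 2 was among them in 14 of 23 after scaling (60.9%, against 45.5%).

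Hepatocyte markers did not follow the same order. Their median deviation from each gene's mean was highest in High-Low 2, at 0.34 on the log2 scale, and lowest in 2×Trp 1, at -0.33. It was nearly as low in High-Low 3, at -0.31. The medians for the 23 genes were -0.13 in High-Low 2 and -0.04 in 2×Trp 1, and ran from -0.21 in High-Low 3 to 0.15 in 2×Trp 3. As deposited, both sets were thus low in High-Low 3, the library with the lowest FPKM total (956426). Scaled to the same FPKM total, High-Low 3 was among the 2 lowest for 5 of 23 genes (21.7%, against 15.3% of all tested). As deposited it was so for 11 (47.8%, against 35.5%). Over all genes tested the library medians, also as deposited, lay between -0.018 and 0.026. The part of cell makeup in these patterns was not tested.

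**Figure D3:**
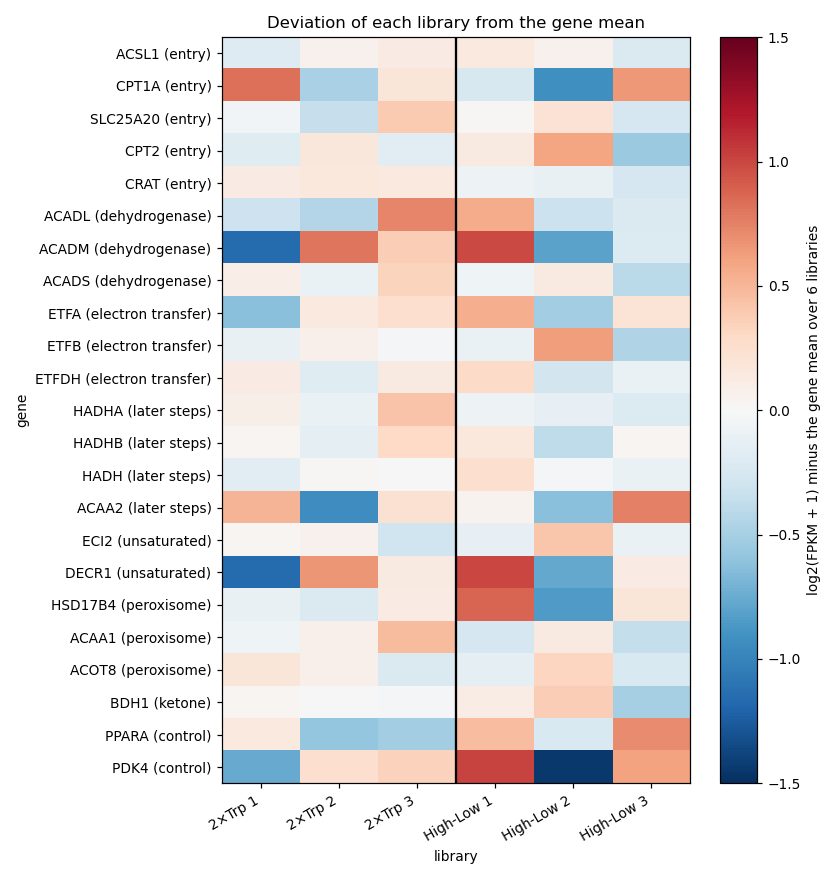
Heat map of log2(FPKM + 1) minus each gene's mean over 6 libraries (colour, red above and blue below the mean), with genes as rows and libraries as columns; the black line divides the diets. Red and blue occur on both sides of the line, and CPT1A with ACAA2 and ACADM with DECR1 show different orders of the libraries.

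Ratios within a library do not depend on how libraries are scaled. For the genes of the trifunctional protein, the HADHA to HADHB ratio was 4.44, 4.34 and 4.60 in 2×Trp and 3.59, 5.09 and 3.58 in High-Low. Its highest value was 1.42 times its lowest. It is a ratio of RNA levels and gives no ratio of the subunits. The listed lengths, 511 and 1961 bases, differ and the listed spans overlap, so its size is uncertain. For the flavoprotein genes, the ETFB to ETFA ratio was 5.53, 3.66 and 3.20 against 2.46, 8.61 and 2.45, a range of 3.52 times. The CPT1A to CPT2 ratio was 4.04, 1.24 and 2.54 against 1.51, 0.665 and 4.74, so CPT1A lay below CPT2 in High-Low 2 only. ACADS exceeded ACADM by 46.2, 8.16 and 15.3 times in 2×Trp and by 7.25, 34.5 and 14.3 times in High-Low. The ECI2 to DECR1 ratio ran from 2.82 in High-Low 1 to 15.6 in 2×Trp 1. Between the peroxisomal and the mitochondrial thiolase, ACAA1 to ACAA2, it ran from 3.25 in High-Low 3 to 14.7 in 2×Trp 2. In all 7 ratios plotted, which were chosen after the values were seen, the diets overlapped.

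**Figure D4:**
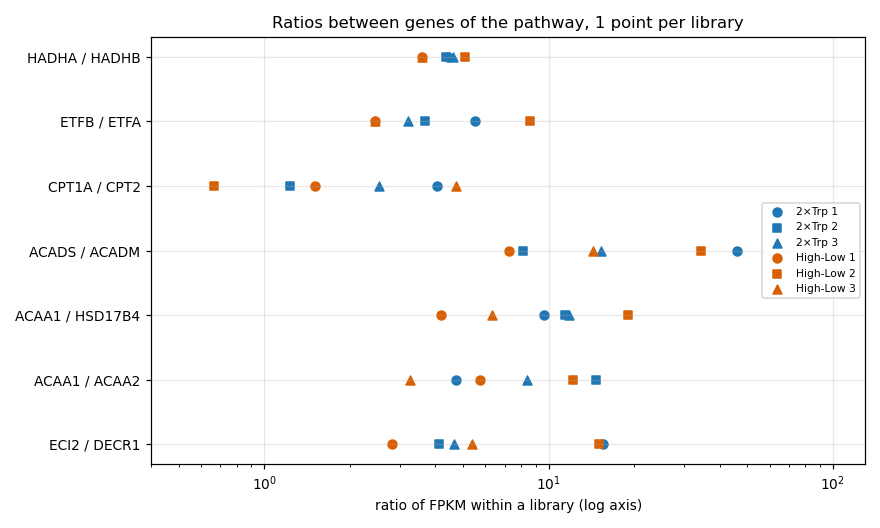
Ratio of 2 FPKM values within each library (horizontal log axis) for 7 gene pairs, with 1 point per library (blue, 2×Trp; orange, High-Low; circle, square and triangle for replicates 1, 2 and 3). HADHA to HADHB holds within a narrow range, from 3.58 to 5.09, and ACADS to ACADM runs from 7.25 to 46.2.

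A further 94 genes of fatty acid oxidation, ketone bodies and their control were taken as a wider list, of which 67 were matched and 54 tested. In limma 0 of 54 passed the adjusted threshold, and 3 of 54 had an unadjusted p under 0.05 (5.56%, against 3.16% of all tested), 2 higher and 1 lower in High-Low. The median log2 fold change of the 54 was -0.015, with 26 positive and 28 negative. Over all genes tested, 5510 of 10901 were negative. By part of the pathway, the negative genes were 3 of 8 for entry and activation, 4 of 11 for mitochondrial oxidation, 12 of 17 for peroxisomal oxidation, 0 of 1 for omega oxidation, 2 of 4 for ketone bodies and 7 of 13 for control, with no test of these shares.

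Smallest in p was ABCD3, a peroxisomal membrane transporter of acyl chains. It had 6.19, 11.2 and 8.61 FPKM in 2×Trp and 15.8, 12.5 and 13.1 in High-Low (log2 fold change 0.64, unadjusted p = 0.0322, limma adjusted p = 0.998). BDH2, a cytosolic relative of BDH1, had 8.02, 7.67 and 6.64 FPKM against 14.7, 9.95 and 9.85. CPT1C, the CPT1 form known from brain, had 1.89, 1.12 and 2.06 FPKM against 0.691, 0.729 and 1.06. In these 3 genes the diets did not overlap, as in 5 of the 54 in all (9.26%, against 7.18% of all tested). The other two were mitochondrial and higher in all 3 High-Low libraries. The dehydrogenase ACADSB had 119, 118 and 113 FPKM against 141, 142 and 134, and ECHDC3 had 47.4, 48.0 and 45.5 FPKM against 58.8, 58.1 and 50.9, with unadjusted p = 0.168 and 0.184 (limma adjusted p = 0.998 for both).

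The diets overlapped in the next 3 genes by p. PEX11G of peroxisome division had 11.7, 11.4 and 11.4 FPKM in 2×Trp and 5.61, 11.6 and 6.87 in High-Low (unadjusted p = 0.0877). HSD17B10 of mitochondria had 461, 401 and 476 FPKM against 303, 426 and 294 (unadjusted p = 0.0912). The deacetylase SIRT3 had 42.4, 35.8 and 34.6 FPKM against 22.3, 42.2 and 20.6 (unadjusted p = 0.154). In all 3 genes High-Low 2 lay within the range of the 2×Trp libraries and the other High-Low libraries below it, and the limma adjusted p was 0.998.

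CROT, which makes carnitine esters of the chains shortened in peroxisomes for export to mitochondria, had 4.87, 8.65 and 19.5 FPKM in 2×Trp and 20.9, 6.81 and 11.3 in High-Low. It was lowest in 2×Trp 1 and High-Low 2, the lowest pair also seen in ACADM and DECR1. As deposited, that pair was lowest in 11 of the 54 genes of the wider list (20.4%, against 12.7% of all tested). CROT was highest in High-Low 1 and 2×Trp 3, not the highest pair of ACADM and DECR1.

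Among other enzymes of ketone bodies, ACAT1, which joins acetyl-CoA units, had 48.8, 52.6 and 59.6 FPKM in 2×Trp and 69.3, 37.1 and 53.2 in High-Low. Its highest and its lowest value both came from High-Low libraries. OXCT1, which tissues other than liver need to use ketone bodies, lay under 1 FPKM throughout, at 0.371 to 0.943.

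Isoforms and regulators lay at very different levels. CPT1A, the liver form of CPT1, had 19.5 to 67.7 FPKM, whereas the muscle form CPT1B had 0.119 to 0.775. The listed length is 2202 bases for CPT1A and 196 for CPT1B. Whether the low CPT1B values are a level of the gene or a failed estimate was not tested. Of the pyruvate dehydrogenase kinases, PDK2 had 57.0 to 131 FPKM and PDK4 1.14 to 10.7. PPARD, a relative of PPARA, had 6.16 to 23.0 FPKM and exceeded PPARA in every library, and PPARG lay under 1 FPKM in all 6. The listed lengths are 448 bases for PPARA and 2020 for PPARD. If the values were computed with these lengths, the order of these 2 genes rests on unlike models. The coactivator PPARGC1A, which acts with PPARA, had 3.12, 3.58 and 1.71 FPKM in 2×Trp and 4.24, 1.89 and 3.02 in High-Low. Of the secreted PPARA targets, ANGPTL4 had 59.1, 35.1 and 86.6 FPKM against 74.2, 68.7 and 28.5. FGF21, a hormone of fasting, had 29.1, 7.70 and 17.6 FPKM against 17.3, 20.6 and 45.8. The highest FGF21 value was in High-Low 3, where PPARA was also highest and ANGPTL4 lowest, and the next in 2×Trp 1. FGF21 and PPARA were both lowest in 2×Trp 2, but High-Low 1, next to the highest for PPARA, was next to the lowest for FGF21.

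**Figure D5:**
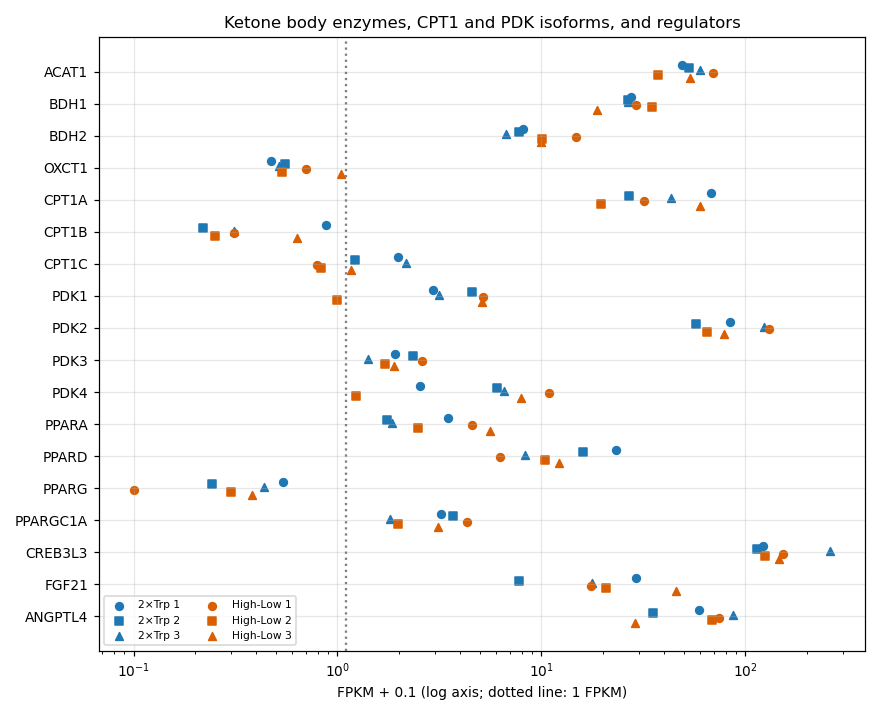
FPKM + 0.1 (horizontal log axis) of ketone body enzymes, CPT1 and PDK isoforms and regulators, with 1 point per library (blue, 2×Trp; orange, High-Low; circle, square and triangle for replicates 1, 2 and 3) and a dotted line at 1 FPKM. CPT1B, OXCT1 and PPARG lie left of the line in all 6 libraries, and PDK2 lies right of PDK4.

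The other 7 genes of the 31 were not matched to an identifier in the tables and were not analysed here. They were PLIN2, the coat protein of lipid droplets, and FABP1, which binds fatty acids in liver cells. The hydratase ECHS1, the isomerase ECI1 and the peroxisomal enzyme EHHADH were the oxidation enzymes among them. Omega oxidation by CYP4A21 and CYP4A24 could therefore not be described.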

How the data were processed

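Per the labels' protocols, Trizol RNA of frozen piglet liver went into TruSeq libraries, and sample titles gave diet and replicate number (3 libraries per diet). TopHat2 2.0.12, Bowtie2 2.2.3 and HTSeq 0.6.1 are named, with build susScr3, per the submitters' processing notes. For the step that made the expression values, annotation and strand setting were not given in the sources used here. Values the authors deposited were read as FPKM, since they are not whole and sum to different totals. They keep no counts, so depth is unknown and no counting interval is given.

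Of 25322 Ensembl identifiers in the tables, 11804 had a symbol. The diets were tested in limma 3.58.1 (R 4.3.3, mean trend, robust variance) on log2(FPKM + 1), keeping genes at 1 FPKM in 3 or more libraries. Benjamini-Hochberg adjustment ran over all 10901 genes kept, with a threshold of 0.05. Fold changes on that scale understate the change of low genes. The fitting step was tested on simulated data with larger changes than those found for the genes of the pathway. That run therefore does not show how well changes of their size would be found. The genes and lists were chosen with earlier results of these data known. All 24 matched genes were named, with, from the wider list, a fixed set, some of which is not reported here, and the 6 of smallest p. Other genes named, and the ratios and library counts, were chosen after their values were seen. Alternatives were other scalings, filters, a pseudocount of 0.1, other variance models, array weights, a replicate block and leaving out each library. Sequences were not used here. Figures were drawn with matplotlib 3.10.9.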

Additional observations from a re-analysis of the deposited data

How the results depend on the processing

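The count of genes called was 0 in all 16 alternatives, with adjusted p from 0.237 to 1 in limma. It covered all 23 genes in 15 of them and 21 with the filter at 5 FPKM, which dropped ACADL and PPARA. The spread among libraries, the counts without overlap and the number with 2×Trp 1 and High-Low 2 lowest under other scalings or a pseudocount, and the counts of the lowest library, were added after seeing the data. Genes at an unadjusted p under 0.05 went from 0 to 5 with array quality weights (CRAT, ACADS, HADHA, ACAA1 and PPARA, where 16.4% of all genes did so) and were 0 to 1 without single replicates, the 1 being PPARA without 2×Trp replicate 1 or High-Low replicate 2. The median log2 fold change was -0.15 with array weights and -0.20 to 0.084 without single replicates, the lowest without High-Low replicate 1. Over all genes, 1 to 2 were called higher without single replicates, and 1 in place of 0 was called lower under each of total scaling, nuclear-gene scaling, quantile normalization and array weights. Same-numbered libraries did not deviate together (correlations of their deviations -0.22, -0.011 and 0.032, not the highest for any number). With 3 libraries per diet this cannot exclude a pairing, and the labels do not give one. With the replicate block 0 of the 23 genes were called, 0 reached an unadjusted p under 0.05, and 1 gene was called over all.

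Signs of differences not past the threshold changed in 18 of 23 genes, and CRAT, ACADS, HADHA, ACAA1 and PPARA kept theirs. With array weights the turned log2 fold changes were HADH -0.014, ACSL1 -0.19, ACADL -0.28, ETFB -0.33, CPT2 -0.33 and CPT1A 0.31. With a pseudocount of 0.1 ACADM was 0.0035. Quantile normalization gave ACADM 0.00049, ETFDH 0.0033, ACOT8 0.015, SLC25A20 0.022 and BDH1 0.034. Scaling to the FPKM total gave SLC25A20 0.0026, BDH1 0.0027 and ACADM 0.0060, and scaling to nuclear genes ETFDH 0.0064, ACOT8 0.025, ACADM 0.050, SLC25A20 0.051 and BDH1 0.051. Without single replicates the ranges were ACSL1 -0.093 to 0.11, CPT1A -0.75 to 0.030, SLC25A20 -0.18 to 0.19, CPT2 -0.16 to 0.42, ACADL -0.26 to 0.38, ACADM -0.59 to 0.39, ETFA -0.13 to 0.45, ETFB -0.26 to 0.28, ETFDH -0.21 to 0.067, HADHB -0.24 to 0.033, HADH -0.0088 to 0.17, ACAA2 -0.31 to 0.47, ECI2 -0.045 to 0.23, DECR1 -0.28 to 0.68, HSD17B4 -0.27 to 0.59, ACOT8 -0.21 to 0.070, BDH1 -0.20 to 0.24 and PDK4 -0.37 to 0.86. The cause of these changes was not tested.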
